A study of Homo sapiens with 4 samples.

Results

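The eIF5A paralogs and the genes of hypusine and polyamine metabolism were followed in GIST-T1 cells after transfection with a miR-335 mimic. The members were 10 genes, chosen by name, of the 36337 gene names that the array carries: the paralogs *EIF5A*, *EIF5A2* and *EIF5AL1*, the hypusine enzymes *DHPS* and *DOHH*, the polyamine synthesis genes *ODC1*, *SRM* and *SMS*, the breakdown enzyme *SAT1* and the antizyme *OAZ1*. They were read by 14 of the 50599 non-control probes. GIST-T1 is an established line of human gastrointestinal stromal tumor (GIST) cells. Per the labels, the cells were nucleofected with 100 pmol of the miR-335 mimic (a synthetic stand-in for the mature microRNA) or of mirVana Negative Control #1. Total RNA was taken 48 h later, and 100 ng of it was labeled with Cy3 for a 1-colour Agilent array. There were 2 arrays in each group. Both groups came from the same untreated line, with no other agent and no allele said to differ between them. The study states that the line carries a gain-of-function mutation of *KIT*.

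eIF5A is a small, abundant protein that helps ribosomes move through stretches that are hard to translate, and it also acts at the end of translation. It is the known carrier of hypusine, an amino acid made after translation on a single lysine. Deoxyhypusine synthase (*DHPS*) moves part of the polyamine spermidine onto that lysine, and deoxyhypusine hydroxylase (*DOHH*) completes the residue, so hypusine depends on the supply of spermidine. Most cells make *EIF5A*, whereas *EIF5A2* is usually restricted to a few tissues and was first isolated from the chromosome 3q region that is gained in several tumors.

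The labels do not say which arm of miR-335 the mimic carried. Both arms are shown because the mimic is the only intended difference between the groups. The text labels of the mimic samples also contradict themselves: title, transfection field and file name give miR-335, but a second line of the description names a miR-34a mimic. The groups are therefore called as the titles call them, and miR-34a-5p is shown beside the miR-335 arms. The sequences are from RefSeq (GRCh38.p14), and the capitals mark the seed, bases 2 to 8, which pairs with targets.
hsa-miR-335-5p: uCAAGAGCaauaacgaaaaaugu
hsa-miR-335-3p: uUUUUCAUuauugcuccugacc
hsa-miR-34a-5p: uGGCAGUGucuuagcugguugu

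*MIR335* lies on chromosome 7, plus strand, with the 5p arm at chr7:130496126-130496148 and the 3p arm at chr7:130496162-130496183. The sites that would pair with the seeds, GCTCTTG for miR-335-5p, ATGAAAA for miR-335-3p and CACTGCC for miR-34a-5p, were sought on the sense strand in the 60-base probes. None of the 14 member probes held a site for any of the 3. Over all 50599 probes the shares were 0.437%, 1.22% and 0.435%. A probe covers 60 bases of a transcript, and the 3′ untranslated regions were not analysed here, so the absence of these letters concerns the probes alone.

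Levels are given as the normalized value, the log2 of the processed signal less the same array's 75th percentile over all probes. A value of 0 is the 75th percentile, and 1 unit is a doubling of signal. The 75th percentile lay between 178.8 and 189.7 intensity units, 20386 to 21214 probes per array were well above background, and no spot was saturated. Replicate arrays differed by a median of 0.064 (mimic) and 0.063 (control), without regard to sign. All 7 marker genes of GIST and interstitial cells of Cajal (such as *KIT*, *ANO1* and *ETV1*) were above background on all 4 arrays. Of the markers of other cells, 1 of 3 for epithelium (*EPCAM*), 1 of 2 for smooth muscle (*DES*), 0 of 3 for leukocytes and 0 of 3 for endothelium were. All arrays shared 1 slide and 1 scan, and arrays of a group lay side by side, so position on the slide and group cannot be told apart. The labels do not say whether replicates were separate cultures. The p-values then measure only the spread between these samples, which may be technical.

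Among the members, the signal that differed was that of the *EIF5A2* probe, which was lower with the mimic. The tested probes of the hypusine enzymes and of the polyamine enzymes stayed within a narrow range. *EIF5A2* encodes the second human eIF5A isoform, a candidate oncogene. In limma, 1 of 13 tested member probes passed an adjusted p of 0.05, against 2.62% of all 20328 tested probes in either direction and 1.15% for lower calls alone. Over the 13 probes the median change was 0.0035 on the log2 scale, and over all tested probes it was -0.014. The 95% confidence interval of the change lay inside a 1.5-fold limit in either direction for 12 of the 13 probes, the exception being *EIF5A2*.

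*EIF5A2* was read by 1 probe, on chromosome 3 (chr3:170606916-170606975, hg19, minus strand). The probe starts at base 4765 of its transcript, far beyond the short coding part. A shorter form that ended before that base would not be read, and such forms were not tested. Its normalized values were -0.42 and -0.55 in the mimic samples and 0.32 and 0.38 in the control samples. The intensities behind them were 142 and 125 units with the mimic and 224 and 236 units in the control. Both mimic arrays lay below both control arrays, and the distance between the groups was several times the gap within either. The mean was -0.49 ± 0.092 (SD, n = 2) with the mimic and 0.35 ± 0.038 (SD, n = 2) in the control.

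The change of *EIF5A2* was -0.84 ± 0.063 (SE) on the log2 scale, a level 1.78-fold lower with the mimic (95% interval 1.57 to 2.02) or 56.1% of the control. Its limma adjusted p was 0.0351. All 4 arrays had the probe well above background. Leaving out any 1 of the 4 arrays ended the call: without mimic replicate 1 the adjusted p was 0.187, without mimic replicate 2 it was 0.189, and without control replicate 1 or 2 it was 0.152 or 0.146, with changes between -0.90 and -0.77. These fits leave 1 array in a group, which is assumed to vary like the other group, and over the whole array they called 0 to 8 probes. Over all alternatives the adjusted p ran from 0.000692 to 0.41. The study named *EIF5A2* as a predicted miR-335 target that was lower on these same arrays, so its fall here is not independent evidence. The prediction was not examined here. In RNA from whole cultures, fewer cells that express a gene and less RNA per cell cannot be told apart.

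*EIF5A* encodes the common isoform. Its probe (chr17:7213037-7213096, hg19, plus strand) starts at base 319 of the transcript. Its values were 4.43 and 4.39 with the mimic and 4.35 and 4.36 in the control. Both mimic arrays were slightly above both control arrays. The change was 0.055 ± 0.040 (SE), with a 95% interval of -0.060 to 0.17 and a limma adjusted p of 0.447. Under scaling to spike-in probes, described below, it was -0.14. The intensities were 3830 to 4097 units with the mimic and 3643 to 3736 units in the control.

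*EIF5AL1*, an intronless copy of *EIF5A*, was read by a probe that starts at base 3773 of its transcript. The array's annotation places the probe at chr10:82003653-82003712 (hg19, minus strand), which was not checked against the position of the gene. Its values were -0.52 and -0.47 with the mimic and -0.27 and -0.34 in the control. The groups did not overlap, but the change, -0.19 ± 0.047 (SE), did not pass after adjustment (limma adjusted p = 0.131). Its interval, -0.33 to -0.055, did not reach the *EIF5A2* value. The coding parts of *EIF5A* and *EIF5AL1* are nearly identical, and transcript sequences were not used here. Whether the *EIF5A* probe also binds *EIF5AL1* RNA, and whether the *EIF5AL1* probe binds that RNA alone, are therefore uncertain.

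**Figure D1:**
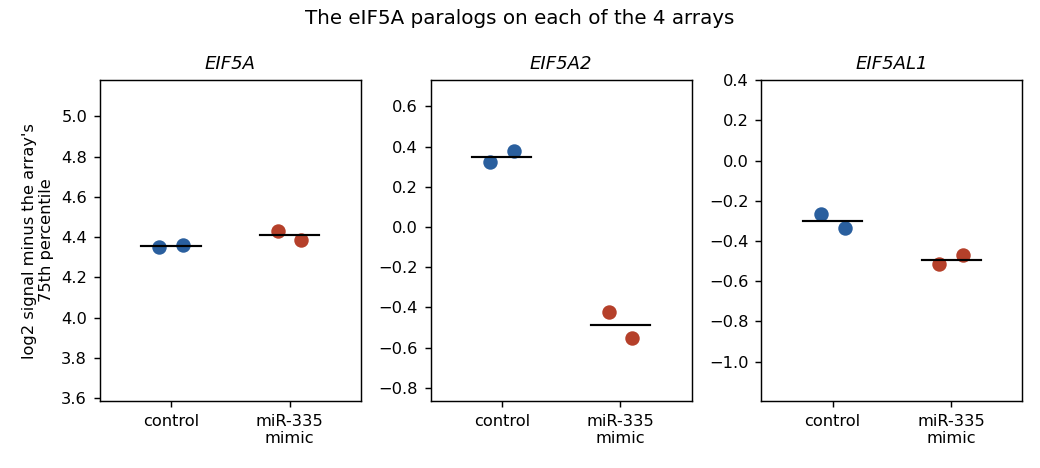
Normalized level (log2 signal minus the array's 75th percentile) of the 3 eIF5A paralogs. Each point is 1 array, the line is the group mean, and every panel spans the same number of log2 units around its own centre. The *EIF5A2* points of the mimic (-0.42 and -0.55) lie well below those of the control (0.32 and 0.38), whereas the *EIF5A* points lie between 4.35 and 4.43.

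The letters of the probes themselves differed between the paralogs; each was compared with other probes only, not with the paralogs' transcripts. The longest run of bases shared with a probe of another paralog was 9 for *EIF5A2*, 9 for *EIF5AL1* and 6 for *EIF5A*, and the longest shared with any other gene's probe was 15, 14 and 12. Signals of different probes also depend on how well each one binds, so the paralog levels stand side by side here and are not ranked.

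The difference between paralogs within an array does not depend on how arrays are scaled. The *EIF5A2* value minus the *EIF5A* value was -4.85 and -4.94 with the mimic and -4.03 and -3.99 in the control. Both mimic arrays had the lower difference, and the groups were apart by -0.89 ± 0.047 (SE). For *EIF5A2* minus *EIF5AL1* the 4 values were 0.095 and -0.078 with the mimic and 0.59 and 0.71 in the control, a shift of -0.64 ± 0.11 (SE). For *EIF5AL1* minus *EIF5A* the shift was -0.25 ± 0.061 (SE). With 2 arrays against 2 the exact two-sided permutation test cannot go below 0.333, and it gave 0.333 for each of these 3 comparisons (also after Benjamini-Hochberg adjustment). The differences describe unequal change of the paralog signals and do not say which of a pair moved.

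The hypusine enzymes lay near 0 change. *DHPS*, which starts hypusine synthesis, had values of 1.65 and 1.74 with the mimic and 1.70 and 1.69 in the control. The groups overlapped, and the change was 0.0035 ± 0.050 (SE; 95% interval -0.14 to 0.15, limma adjusted p = 0.972). *DOHH*, which finishes it, had values of 2.09 and 2.05 with the mimic and 2.11 and 1.97 in the control. Its groups overlapped too, and the change was 0.032 ± 0.064 (SE; interval -0.15 to 0.22, limma adjusted p = 0.777). The *DHPS* probe (chr19:12790344-12790482, minus strand) crosses an exon junction, and the *DOHH* probe (chr19:3491361-3491420, minus strand) does not. Spike-in scaling moved both below 0 (-0.19 and -0.16).

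The polyamine synthesis genes followed. *ODC1*, ornithine decarboxylase, which makes putrescine, was among the brightest of the members' probes, with intensities of 64670 and 63951 units with the mimic and 60814 and 60825 units in the control. Its normalized values were 8.41 and 8.45 with the mimic and 8.41 and 8.39 in the control, and the change was 0.033 ± 0.039 (SE; limma adjusted p = 0.633). The groups were apart only narrowly, and spike-in scaling gave -0.16.

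*SRM*, spermidine synthase, which makes the spermidine that *DHPS* consumes, had values of 3.009 and 3.003 with the mimic and 2.82 and 2.76 in the control. Both mimic arrays were above both control arrays. The change was 0.21 ± 0.042 (SE; interval 0.092 to 0.34), and it did not pass after adjustment (limma adjusted p = 0.101). It passed when the variance was allowed to follow intensity (adjusted p = 0.00867), and its adjusted p over the alternatives reached 0.734, with no filter. With spike-in scaling the change shrank to 0.023. The probe spans chr1:11115982-11116125 (minus strand) and crosses a junction.

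*SMS*, spermine synthase, uses spermidine to make spermine, and was read by 3 probes on chromosome X. The brightest (A_21_P0010565) had values of 5.66 and 5.69 with the mimic and 5.65 and 5.70 in the control, a change of 0.0051 ± 0.041 (SE). The others changed by -0.071 ± 0.038 (A_24_P305764) and 0.060 ± 0.047 (A_21_P0013088), with limma adjusted p of 0.328 and 0.476. The 3 probes thus disagreed in sign, each within its own interval of 0.

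On the breakdown side, *SAT1* encodes the acetyltransferase that marks spermidine and spermine for export or oxidation. Its brightest probe (A_23_P137016) had values of 2.74 and 2.91 with the mimic and 2.95 and 2.88 in the control, a change of -0.088 ± 0.077 (SE; limma adjusted p = 0.527). A second probe (A_33_P3371718) changed by -0.0038 ± 0.047 (SE; limma adjusted p = 0.966). Both overlapped between the groups. The remaining *SAT1* probe (A_33_P3371727) stayed below the background limit on all 4 arrays and was not tested.

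*OAZ1* encodes antizyme, which binds ornithine decarboxylase and hands it to the proteasome when polyamines are plentiful. Its values were 8.21 and 8.30 with the mimic and 8.27 and 8.30 in the control. The groups overlapped, and the change was -0.025 ± 0.050 (SE; interval -0.17 to 0.12, limma adjusted p = 0.777).

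**Figure D2:**
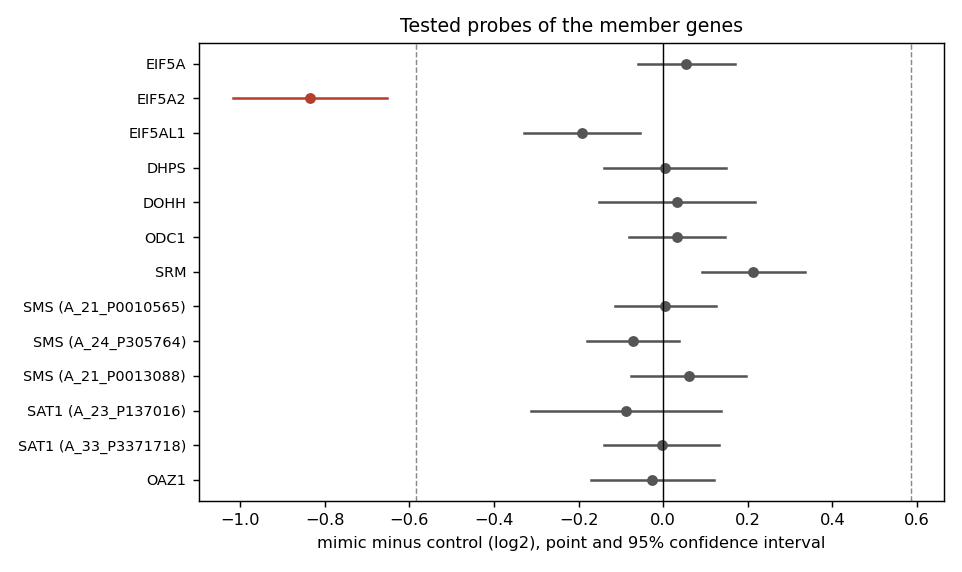
Change of each of the 13 tested member probes, mimic minus control on the log2 scale, with its 95% confidence interval from limma. Dashed lines mark the 1.5-fold limit, and the probe in red passed the adjusted threshold. *EIF5A2* (-0.84) is the one interval that leaves the dashed lines, and *EIF5AL1* (-0.19) and *SRM* (0.21) are the other intervals that exclude 0.

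The groups did not overlap in 7 of the 13 probes, 3 with the mimic below and 4 with it above, against 59.7% of all tested probes. An unadjusted p under 0.05 was reached by 3 of 13 (*EIF5A2*, *EIF5AL1* and *SRM*), against 25.3% of all tested probes. Both shares were near those of the array as a whole. Apart from *EIF5A2*, 0 of 12 probes passed after adjustment in limma, with 2 at an unadjusted p under 0.05.

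Scaling to the 7 external spike-in probe types shifted the members together. The tested probes then had a median change of -0.204, and *EIF5A2* one of -1.03. Under that scaling 9 of the 13 member probes were called lower, on *DHPS*, *EIF5A2*, *EIF5AL1*, *OAZ1*, *ODC1*, *SAT1* (both probes) and *SMS* (2 probes), among 9329 probes lower and 505 higher over the array. The *EIF5A* and *DOHH* changes were also negative there and did not pass. *EIF5A2*, *EIF5AL1*, *SRM*, *SMS* A_24_P305764 and *SAT1* A_23_P137016 kept their sign in all 18 alternatives, and each of the other member probes turned sign in at least 1 of them.

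The other genes of polyamine metabolism and of eIF5A handling were examined as a list of 26, all of them on the array. Of these, 22 had a tested probe, and with the brightest probe of each gene 2 were called lower and 0 higher (limma; 5 at an unadjusted p under 0.05). Over all tested probes the shares were 1.15% called lower and 25.3% at an unadjusted p under 0.05. The called genes were *SLC18B1*, a vesicular polyamine transporter (C6orf192 on the array), and *KAT2B*, an acetyltransferase known to acetylate eIF5A among many proteins. The median change of the 22 was -0.072, with 19 below 0 (10940 of 20328 over all tested probes), and in 18 the 95% interval stayed inside the 1.5-fold limit. Spike-in scaling called 18 of the 22 in either direction, *EIF5* among them. Under that scaling 9834 of all 20328 tested probes were called, 9329 lower and 505 higher, so the count is not read as a result about the list.

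*SLC18B1* had values of 2.97 and 3.003 with the mimic and 3.53 and 3.53 in the control on its brightest probe (A_23_P134113). The groups were far apart against their gaps, and the change was -0.55 ± 0.038 (SE; limma adjusted p = 0.0351). The second probe (A_33_P3321230) also had both mimic arrays below both controls, with a change of -0.41 ± 0.067 (SE; limma adjusted p = 0.0802). *KAT2B* had values of 3.52 and 3.59 with the mimic and 4.07 and 4.04 in the control, a change of -0.50 ± 0.045 (SE; limma adjusted p = 0.0407). Without 1 array the changes lay between -0.56 and -0.53 for *SLC18B1* and between -0.53 and -0.46 for *KAT2B*. Neither passed in these fits (adjusted p of 0.146 to 0.196 and 0.155 to 0.196), which called 0 to 8 probes of the whole array.

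The rest of polyamine synthesis and breakdown did not pass. *AMD1*, S-adenosylmethionine decarboxylase, which supplies the aminopropyl groups for *SRM* and *SMS*, changed by -0.016 ± 0.036 (SE) on its brighter probe. The spermine oxidase *SMOX* changed by -0.043 ± 0.048 (SE) and the acetylpolyamine oxidase *PAOX* by -0.21 ± 0.076 (SE; limma adjusted p = 0.209). Among the regulators of ornithine decarboxylase, antizyme 2 (*OAZ2*) changed by -0.045 ± 0.043 (SE) and the antizyme inhibitor *AZIN1* by -0.074 ± 0.045 (SE). The 3 tested probes of *MTAP*, which recycles the by-product of spermidine and spermine synthesis, disagreed, at -0.27, -0.063 and 0.33, and none passed.

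The eIF5A exporter *XPO4* changed by -0.011 ± 0.088 (SE), with a limma adjusted p of 0.947. Of the other translation factors, *EIF5B*, which joins the ribosomal subunits, changed by -0.073 ± 0.040 (SE; limma adjusted p = 0.346). *EIF5*, which is unrelated to eIF5A despite its name and acts in start-codon selection, had values of -0.85 and -0.70 with the mimic and -1.44 and -1.24 in the control; its change of 0.57 ± 0.10 (SE) did not pass (limma adjusted p = 0.0873). The *EIF5* probe did pass with spike-in scaling, with normexp background correction and when the variance was allowed to follow intensity. It also passed by the methods' t-test at an unadjusted p, but in none of the other alternatives. *EIF5* was chosen for mention after its values were seen.

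**Figure D3:**
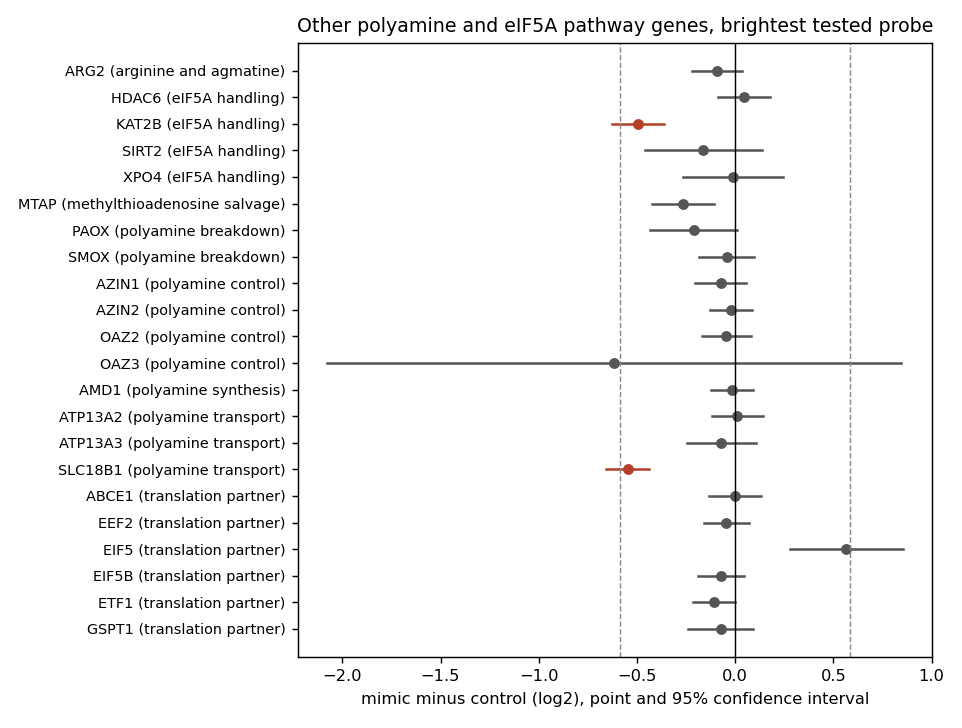
Change of the brightest tested probe of 22 other polyamine and eIF5A pathway genes, mimic minus control on the log2 scale, with 95% confidence intervals and dashed lines at the 1.5-fold limit. The genes in red, *SLC18B1* (-0.55) and *KAT2B* (-0.50), passed the adjusted threshold, *EIF5* had the highest value (0.57), and the wide interval belongs to the dim *OAZ3* probe.

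*EIF5A2* lies on chromosome 3q, and the probes within 1 Mb of its probe were examined to place its change beside its neighbours. Both groups came from the same line, and copy number was not measured. There were 29 probes with 22 gene names, and 16 probes were tested. Of these, 3 were called lower and 0 higher in limma: *EIF5A2*, *CLDN11* and 1 of 3 *TNIK* probes. Leaving out *EIF5A2*, on which the window was centred, 2 of 15 were called lower, against 1.15% of all tested probes. The median change of the 15 was -0.13, and 12 were below 0, against -0.014 and 10940 of 20328 over all tested probes. Those 12 include all 3 *TNIK* probes, so they are not separate genes. The intervals of 9 of the 16 stayed inside the 1.5-fold limit.

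The nearest tested neighbour, *RPL22L1*, a ribosomal protein paralog 22.7 kb away, had values of 8.14 and 8.22 with the mimic and 8.17 and 8.19 in the control. Its groups overlapped, and its change was -0.0045 ± 0.046 (SE; limma adjusted p = 0.959). *CLDN11*, a tight-junction claudin 455 kb away, had values of -1.39 and -1.33 with the mimic and -0.81 and -0.74 in the control, a change of -0.58 ± 0.049 (SE; limma adjusted p = 0.0388). The kinase gene *TNIK* changed by -0.47 ± 0.043 (SE; limma adjusted p = 0.0407) on the called probe (A_33_P3213596), and by -0.24 and -0.36 on the others (limma adjusted p = 0.0723 and 0.143). All 3 *TNIK* probes had both mimic arrays below both controls. Without 1 array the change of *CLDN11* lay between -0.61 and -0.55 and that of the called *TNIK* probe between -0.49 and -0.44. Neither passed in these fits (adjusted p of 0.148 to 0.196 and 0.148 to 0.197).

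The remaining named genes in the window did not pass. They were *PRKCI*, an atypical protein kinase C (-0.13), *SKIL*, a repressor of SMAD signalling (-0.083), the orphan receptor gene *GPR160* (-0.070), the polycomb gene *PHC3* (0.047), *SEC62*, of the protein-import machinery of the endoplasmic reticulum (0.23), and the phospholipase gene *PLD1* (-0.040). Of the unnamed or long non-coding entries, LOC100128164 had a tested probe at -0.16, LOC100505492 at 0.035, XLOC_002921 at -0.18 and ENST00000331659 at -0.59. The ENST00000331659 probe (limma adjusted p = 0.0778) was well above background on 2 control arrays and 0 mimic arrays. It was thus tested only through the group where it is higher, and its change is not read as a result. It is counted in the median and in the changes below 0 given above for the window.

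**Figure D4:**
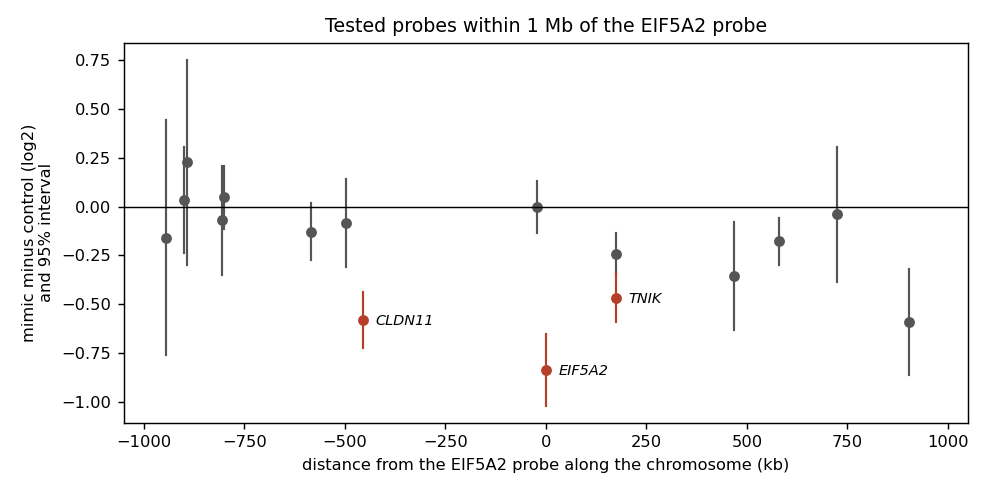
Change of the 16 tested probes within 1 Mb of the *EIF5A2* probe, mimic minus control on the log2 scale, with 95% confidence intervals, against distance from that probe in kb. Red marks probes past the adjusted threshold. *EIF5A2* (-0.84) stands beside its nearest neighbour *RPL22L1* at -0.0045, and *CLDN11* (-0.58) and *TNIK* (-0.47) are the other probes in red.

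Gene names whose 4-array profile lay nearest to that of *EIF5A2* were found by the Euclidean distance between profiles centred on their own means, over all tested probes. The 5 nearest were *SNORA28* (distance 0.067 on the log2 scale), *GNAS* (0.070), *NPR3* (0.094), *SNAR-A3* (0.10) and *HAND1* (0.11). *SNORA28* is a small nucleolar RNA and *NPR3* a natriuretic peptide receptor. *SNAR-A3* belongs to a multicopy family of small non-coding RNAs, and *HAND1* is a transcription factor. *GNAS* encodes the stimulatory G protein alpha subunit, but its probe (A_24_P168574) is annotated to an Ensembl transcript. Whether that probe reads the mRNA of the protein was not tested. Changes of these 5 ran from -0.92 (*HAND1*) to -0.77 (*NPR3*), and the measure uses the same 4 arrays and the same contrast as the call. Copies of *SNAR-A* share sequence, so the source of that signal is uncertain.

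**Figure D5:**
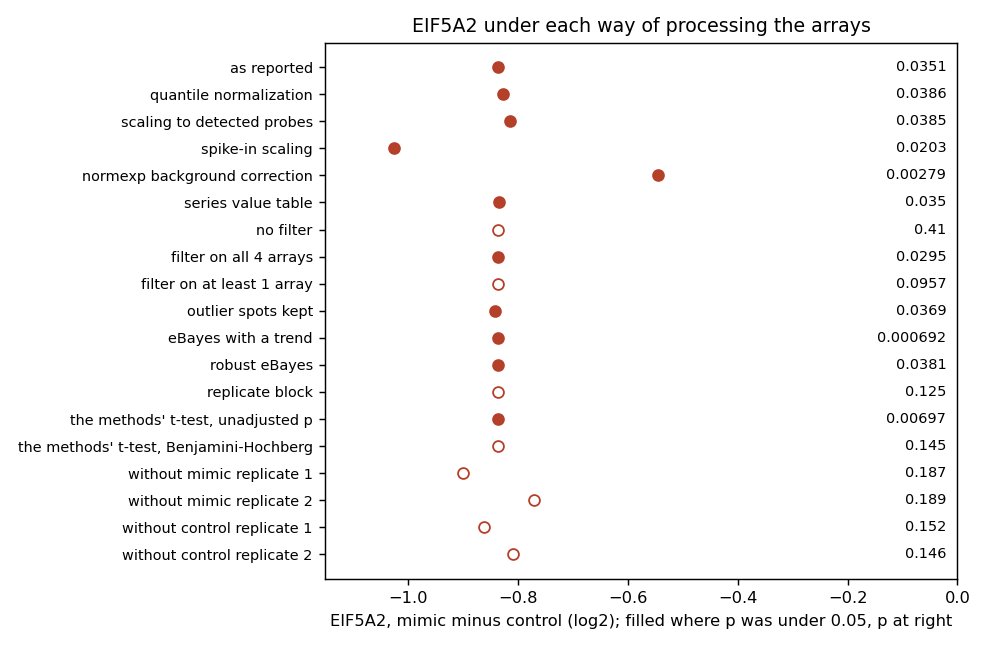
Change of *EIF5A2*, mimic minus control on the log2 scale, as reported and under 18 alternatives, with the p of each at the right (Benjamini-Hochberg adjusted, except for the row named as unadjusted). Filled points had a p under 0.05. All points lie between -1.03 (spike-in scaling) and -0.54 (normexp background correction), and the 8 open points include all 4 that leave out 1 array.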

How the data were processed

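The authors deposited spot intensity values of 4 arrays from Feature Extraction 10.7.3.1, background-subtracted and detrended but not normalized between arrays, and a series value table with the same processed intensity, in which 0 columns matched no sample. The fold limit of the study is 1.5, and GeneSpring results were not used here. Spots flagged as outliers (356 to 395 per array, 0 of them of member probes) were dropped, and spots of a probe were averaged as log2. Each array's 75th percentile was subtracted. Probes well above background (at least 0.5 of the spots so flagged) on both arrays of a group, with values on all 4, were tested: 20328 probes with 15454 gene names. The fit used limma 3.58.1 under R 4.3.3 (lmFit, eBayes without a trend, 3.622 total degrees of freedom), with Benjamini-Hochberg adjustment over all tested probes and a threshold of 0.05. Sequences were handled with Python and pandas, and figures drawn with matplotlib 3.10.9. The step was tested on simulated data. The number of arrays limits the precision.

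Members and lists were chosen with earlier results of these data known. Named were all members, the called genes of the pathway list plus *AMD1*, *SMOX*, *PAOX*, *OAZ2*, *AZIN1*, *XPO4* and *EIF5B*, genes with a tested probe within 1 Mb of *EIF5A2*, and the 5 most like it in profile. *MTAP*, *EIF5* and *OAZ3* were named outside this rule, after their values were seen. Coordinates (hg19) and names come from the array files; 2 of 26 list genes carried older symbols, and all 10 members matched RefSeq symbols. Alternatives were 3 scalings, normexp, the series table, 3 filters, outlier spots, 2 variance estimates, a replicate block, the methods' t-test and leaving out each array. The study's methods name the t-test for continuous variables in general, and they name no test for the arrays. Whether replicate numbers pair the samples is not known. The correlation of the differences between replicates 1 and 2 across groups was 0.035, which cannot settle how the samples were handled.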

Additional observations from a re-analysis of the deposited data

How the results depend on the processing

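*EIF5A2* was lower with the mimic in all 18 alternatives, from -1.03 (spike-in scaling) to -0.54 (normexp), and its call was lost in 8: with no filter (adjusted p = 0.41), with a filter on at least 1 array (0.0957), with the replicate block (0.125), with the methods' t-test after Benjamini-Hochberg (0.145) and without each array (0.146 to 0.189). These 2 filters tested 50526 (none) and 22850 (at least 1 array) probes, against 20328. The *EIF5A2* minus *EIF5A* difference moved to -0.60 with normexp and lay between -0.93 and -0.85 when 1 array was left out. The other alternatives stayed within 1 SD. Normexp was run with an added offset of 50 units, while the processed *EIF5A2* intensities were 125 to 236 units. For the remaining differences the cause was not tested.

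Member probes called numbered 9 with spike-in scaling, 2 with an intensity trend (*EIF5A2* and *SRM*), 3 by the methods' t-test at an unadjusted p, and 0 with no filter, a filter on at least 1 array, the replicate block, the adjusted t-test and each array left out (range 0 to 0), where 2 to 3 member probes had an unadjusted p under 0.05. Over all probes the calls were 9834 with spike-in scaling (9329 lower, 505 higher), 1550 with normexp (758 lower, 792 higher), 3083 with a trend (1736 lower, 1347 higher), 4115 by the unadjusted t-test, and 0 with no filter, a filter on at least 1 array, the replicate block and the adjusted t-test (limma, 3627, 4696 and 4400 probes at an unadjusted p under 0.05), and 0 to 8 without 1 array (3578 to 3907 unadjusted; the 8 came without mimic replicate 2). For the other pathway genes the count was 18 with spike-in scaling, 4 with a trend, 5 by the unadjusted t-test, and 0 in the settings that gave 0 over all probes (0 to 0 without 1 array; 3 to 5 unadjusted). For probes near *EIF5A2* it was 9 with spike-in scaling, 6 by the unadjusted t-test and 0 in those settings (0 to 0 without 1 array; 6 to 7 unadjusted). Normexp called 3 of the other pathway genes, *EIF5* in addition to *SLC18B1* and *KAT2B*. The unblocked and blocked changes are the same in value, but the block ended the calls of *EIF5A2*, *SLC18B1*, *KAT2B*, *CLDN11* and *TNIK*. The blocked fit has fewer residual degrees of freedom, and whether replicate numbers pair these samples is not known.

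Signs turned for members with changes near 0. Spike-in scaling gave *SMS* A_21_P0010565 -0.19, *SMS* A_21_P0013088 -0.13, *DOHH* -0.16, *ODC1* -0.16, *DHPS* -0.19 and *EIF5A* -0.14. Normexp gave *SMS* A_21_P0010565 -0.030, *DOHH* -0.012, *DHPS* -0.031 and *SAT1* A_33_P3371718 0.0018. Keeping outlier spots gave *SMS* A_21_P0010565 -0.00085 and *DHPS* -0.0025. Quantile normalization gave *SAT1* A_33_P3371718 0.011 and scaling to detected probes 0.017. Without 1 array, *SMS* A_21_P0010565 ran from -0.018 to 0.028, *DOHH* from -0.036 to 0.10, *OAZ1* from -0.071 to 0.020, *DHPS* from -0.043 to 0.050 and *SAT1* A_33_P3371718 from -0.044 to 0.037. A slide or scan block could not be fitted, since all arrays shared 1 of each, and no other *EIF5A* probe existed to replace the one used; both were not run.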
